A study of Homo sapiens with 7 samples.

Results

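Divergent promoters carry 2 start sites that face away from each other: a gene transcription start site (gene TSS) and, on the opposite strand upstream of it, an upstream antisense start site (uaTSS). RNA from the uaTSS is often a short-lived noncoding transcript, and at some promoters it is the start of a neighbouring gene. Each start is served by its own core promoter and polymerase II complex, and factors such as SP1 (at GC boxes), NF-Y (at CCAAT boxes) and ETS proteins bind between or beside the starts of CpG island promoters.

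Among 5519 uaTSSs called in T-47D cells, 576 lay 1 to 80 nt upstream of their gene TSS. These near uaTSSs were selected on the measured distance between the called positions, so their distances are given as a description only. The other 4943 uaTSSs lay 81 to 1000 nt upstream, and 4872 of the 10391 gene TSSs had no uaTSS. T-47D is a luminal breast cancer line; the cells used here were its subline T47D/A1-2, engineered with extra glucocorticoid receptor (the rat protein) and a luciferase gene driven by the MMTV promoter in the genome. All cells were grown in 10% serum, then moved for a minimum of 24 hours to 5% serum stripped with charcoal and dextran, with no second condition. Start positions came from 1 Start-seq library (capped short nuclear RNA, read from its 5' end), and gene expression came from RNA-seq of 3 replicates that were merged before FPKM (fragments mapped to a gene, scaled by transcript length and library size) was computed. No value therefore has a replicate error. Intervals are 95% and cover counting over the sites of these libraries only: exact binomial for a share, Newcombe for a difference of shares.

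The expression table was checked against the labelled line. All 11 luminal markers lay between 44.1 and 1142 FPKM, with a sum of 4316. The 4 basal or mesenchymal markers summed to 1.38 FPKM, with KRT5 and KRT14 listed at 0. The 5 fibroblast, endothelial and immune markers summed to 8.85 FPKM, of which COL1A1 gave 8.82, and CD3E was listed at 0. One luminal marker gene was among the near uaTSSs: EPCAM, an epithelial adhesion molecule, at 53 nt with 146 FPKM.

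Near uaTSSs thinned out towards the gene TSS. Of the 576, 251 lay 61 to 80 nt upstream, 152 lay 41 to 60 nt, 101 lay 21 to 40 nt and 72 lay 1 to 20 nt. Their median distance was 57 nt (quartiles 35 and 70). At the limit itself, 13 uaTSSs lay at 80 nt, among them those of NDUFA13 (230 FPKM), a complex I subunit, and HINT1 (217 FPKM), a nucleotide hydrolase. Just outside it, 4 lay at 81 nt, at PASD1 (13.8 FPKM), NEDD1 (13.1 FPKM), PTPRJ (9.48 FPKM) and SLC25A15 (6.73 FPKM). The median was 15.96 FPKM for the 13 at 80 nt and 11.3 FPKM for the 4 at 81 nt. The 576 belonged to 571 named genes and 1 start without an annotated gene, since BRD2, SECISBP2, TET2 and TRPS1 each had 2 gene TSSs with a near uaTSS. The counts did not break at the limit, with 133 uaTSSs at 71 to 80 nt and 132 at 81 to 90 nt.

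The sequences between the starts are shown for the most highly expressed genes in each range of distance, to let the room between paired starts be seen. All are read 5' to 3' on the gene's strand from GRCh37 (the sequence of hg19), and capitals run from the uaTSS to the gene TSS. CD63 (a tetraspanin of endosomes and exosomes; chr12:56123120-56123147, minus strand) and FEN1 (the flap endonuclease of Okazaki fragment processing; chr11:61560353-61560377, plus strand) had their starts 7 and 4 nt apart. SRSF9, a splicing factor (chr12:120907285-120907355, minus strand), had them 40 nt apart, within an exon. RPL37A (chr2:217363502-217363577, plus strand) and RPS14 (chr5:149829288-149829370, minus strand), of the large and small ribosomal subunits, had them 45 and 52 nt apart. ALDOA, the glycolytic aldolase (chr16:30076344-30076443, plus strand), had them 69 nt apart.
CD63: tcacccacctCGTCCGCTtctctgaacc
FEN1: cacgtgacggGAGCGcgggctttgg
SRSF9: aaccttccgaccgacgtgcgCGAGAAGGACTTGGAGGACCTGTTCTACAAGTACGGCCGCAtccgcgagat
RPL37A: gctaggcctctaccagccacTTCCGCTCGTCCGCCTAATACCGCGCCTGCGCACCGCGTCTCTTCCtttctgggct
RPS14: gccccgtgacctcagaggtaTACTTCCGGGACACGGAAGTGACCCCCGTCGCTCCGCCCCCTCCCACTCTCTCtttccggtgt
ALDOA: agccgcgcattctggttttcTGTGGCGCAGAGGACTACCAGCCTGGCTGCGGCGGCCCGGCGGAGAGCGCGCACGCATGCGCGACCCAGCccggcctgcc

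At most 10 nt separated the starts at 39 promoters, and at 10 of these the uaTSS was the base next to the gene TSS. The following 4 are among the 5 most highly expressed of those 10: TOR1AIP1, a nuclear lamina protein (31.3 FPKM; chr1:179851057-179851078, plus strand); ZNF770, a zinc finger protein (15.1 FPKM; chr15:35280959-35280980, minus strand); CXorf40A (11.1 FPKM; chrX:148622411-148622432, plus strand); and ARSG, a lysosomal sulfatase (6.58 FPKM; chr17:66288097-66288118, plus strand).
TOR1AIP1: tcactcctgcTAaggacactgg
ZNF770: ggcacgccatTAgaggagtcgc
CXorf40A: ttcgagaatgCGagattcataa
ARSG: ccttccagttTGggtgtgagct
Here the capitals are both called positions, which share 1 dinucleotide. At 9 of the 10 it was a pyrimidine followed by a purine, which reads the same way on the other strand, so the 2 strands are not separate observations of it. The called positions do not show whether the strands initiate separately at these promoters. Only 3 of the 10 gene TSSs lay within 50 nt of an annotated start.

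Gene TSSs with a near uaTSS lay at annotated starts less often than those with a uaTSS at 81 to 200 nt. Within 50 nt of an annotated start of the gene were 404 of 576 (70.1%, interval 66.2 to 73.9), against 84.0% at 81 to 200 nt (difference -13.9 percentage points, interval -18.0 to -9.93). Over 400 nt the share was 66.6%, and the difference from it was 3.51 points (interval -1.34 to 8.23). Gene TSSs without a uaTSS were at 71.1%, a difference of -0.96 points with an interval that included 0 (-5.02 to 2.86), and all gene TSSs at 74.7%. A further 16.8% of gene TSSs with a near uaTSS lay over 50 nt upstream of the nearest annotated start, against 6.53% of those with any other uaTSS, 14.96% of those without a uaTSS (difference 1.88 points, interval -1.14 to 5.29) and 11.1% of all gene TSSs. RPS12, of the small ribosomal subunit (223 FPKM), was one of these: its called gene TSS lay 296 nt upstream of the annotated start, outside its transcripts, and the uaTSS a further 68 nt upstream. ALDOA was of the opposite kind, with a called gene TSS 373 nt downstream of the nearest annotated start and in an intron. Gene TSSs in an exon of their gene made up 64.8% with a near uaTSS and 80.9% with any other uaTSS. The exon share was 72.6% without a uaTSS (difference -7.80 points, interval -12.0 to -3.80) and 76.1% over all gene TSSs. The near uaTSS itself lay in an exon of its gene at 179 of 576 promoters (31.1%), against 12.9% of the other uaTSSs; this placement depends in part on the distance that chose them.

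GC boxes and CCAAT boxes were less frequent upstream of gene TSSs with a near uaTSS than in every other class taken as a whole. The GC box (GGGCGG), the SP1 site, lay in the 100 nt upstream of 228 of 576 gene TSSs (39.6%, interval 35.6 to 43.7). The share was 54.6% at 81 to 200 nt, 54.6% over 200 to 400 nt, 56.8% over 400 nt, 46.5% without a uaTSS and 50.2% over all gene TSSs. Against all other uaTSSs the difference was -15.4 points (interval -19.6 to -11.2). The CCAAT box (CCAAT), the NF-Y site, was found at 50 of 576 (8.68%, interval 6.51 to 11.3), against 18.0% to 22.0% in the other 3 distance classes, 18.7% without a uaTSS and 18.7% over all gene TSSs. Against all other uaTSSs that difference was -11.2 points (interval -13.5 to -8.38). Sites just outside the limit were also low in CCAAT. The share was 12.8% at 71 to 80 nt, 6.82% at 81 to 90 nt and 12.4% at 91 to 100 nt. It was 31.3% at 191 to 200 nt. The 100 nt window runs past every near uaTSS, so both motif counts can depend in part on the distance that chose these sites. Motifs were searched as exact letters on both strands, and a match is not evidence of binding.

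Sites for other activators did not follow the same order. The ETS core (CCGGAA) was found at 134 of 576 (23.3%) against 23.6% at 81 to 200 nt, a difference of -0.30 points (interval -4.04 to 3.71). It was less frequent farther out, with 15.5% over 200 to 400 nt and 9.82% over 400 nt, and 16.8% over all gene TSSs. RPS14, shown above, holds it. The CRE (TGACGTCA), bound by CREB and ATF proteins, was found at 21 of 576 (3.65%) and at 1.80% of all gene TSSs. It was 1.68 points above the other uaTSSs (interval 0.36 to 3.58) and 0.91 points above 81 to 200 nt (interval -0.56 to 2.87). The NRF1 site (GCGCANGCG) was found at 52 (9.03%) against 8.29% of the others and 7.60% of all gene TSSs. The YY1 site (AAGATGGCG) was found at 6 (1.04%) against 1.21% and 0.95%. The intervals of both differences from the others included 0. In the 200 nt upstream the NRF1 order turned, with 10.4% against 13.8% of the others (difference -3.42 points, interval -5.87 to -0.50). A TATA sequence (TATAA or TATAT starting 35 to 24 nt upstream) was found at 6 of 576 gene TSSs (1.04%) and 3.05% of the others (difference -2.01 points, interval -2.78 to -0.72). None of the 576 near uaTSSs had one, against 0.75% of the other uaTSSs. Against 0.50% at 81 to 200 nt the interval of the difference included 0 (-0.90 to 0.20 points).

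Where a motif was present, the share of promoters with a match between the paired starts varied by motif. Of the 228 promoters with a GC box, 162 (71.1%) had one that started between the paired starts, as did 88 of 134 (65.7%) for ETS and 40 of 52 (76.9%) for NRF1. For the CCAAT box it was 23 of 50 (46.0%), and the other 27 had it only beyond the uaTSS. These shares depend in part on the distance that chose the near uaTSSs and on how far each motif lies from the gene TSS. No expected share was computed, so placement relative to the uaTSS itself was not tested. The median CCAAT start lay 53 nt upstream of the gene TSS with a near uaTSS and 70 nt upstream with any other uaTSS.

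**Figure D1:**
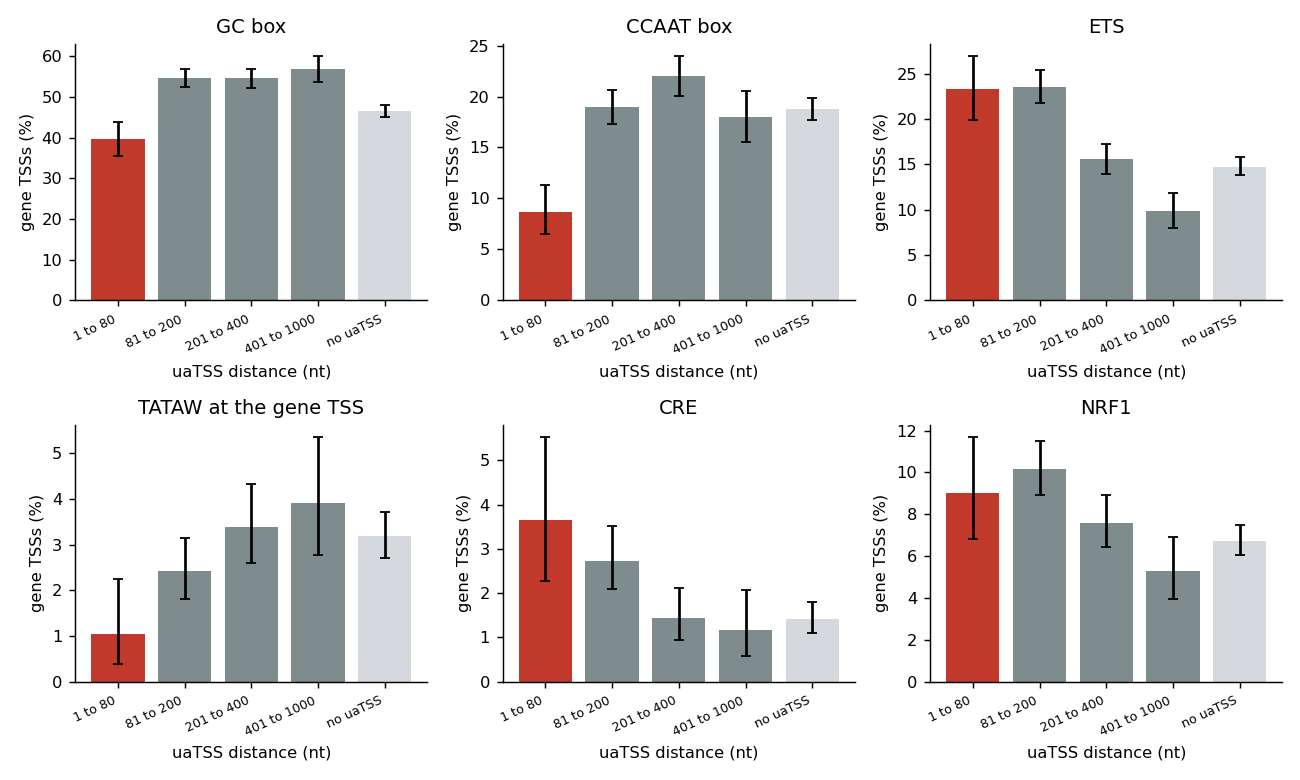
Percentage of gene TSSs with each motif in the 100 nt upstream (TATAW: at 35 to 24 nt upstream), by uaTSS distance class, with near uaTSSs in red and gene TSSs without a uaTSS in light grey; bars are exact 95% binomial intervals. The red bar is lowest for the GC box (39.6%), the CCAAT box (8.68%) and TATAW (1.04%).

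Base composition differed between the distance classes, and its part in the motif counts was not tested. GC content of the 100 nt upstream was 66.9% ± 8.85 (SD over 576 gene TSSs) with a near uaTSS and 69.8% ± 9.21 with any other uaTSS, a difference of -2.88 points (interval -3.65 to -2.12). Without a uaTSS it was 66.8% ± 11.2, a difference of 0.15 points with an interval that included 0 (-0.64 to 0.94), while the GC box and CCAAT box shares of that class were 46.5% and 18.7%. In the 200 nt upstream it was 64.0% and 68.4%. Centred on the gene TSS the values were closer, at 66.9% and 68.2% over 100 nt (difference -1.22 points, interval -1.94 to -0.51). Within the near uaTSSs, GC content of the 100 nt upstream was 62.9% at distances of 1 to 20 nt, 65.8% at 21 to 40 nt, 68.3% at 41 to 60 nt and 67.7% at 61 to 80 nt.

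CpG islands covered 483 of 576 gene TSSs with a near uaTSS (83.9%, interval 80.6 to 86.8), near the 82.8% over all gene TSSs. The share was 87.9%, 91.1% and 85.3% in the classes of increasing distance and 76.9% without a uaTSS. The difference from all other uaTSSs was -4.72 points (interval -8.06 to -1.79). Their islands had a median length of 808 nt (interval 771 to 863), against 947 nt (927 to 969) with any other uaTSS and 833 nt at 81 to 200 nt, where the interval of the difference included 0 (-69.7 to 35.4 nt). They reached a median of 304 nt upstream of the gene TSS, against 293 nt at 81 to 200 nt. Of the 483, 459 extended past the near uaTSS, against 1668 of 1929 at 81 to 200 nt and 3899 of 4861 over all uaTSSs. This count depends in part on the distance that chose the near uaTSSs. The initiator sequence did not separate the classes. CANW (C before the start, A at it) was found at 16.8% of near uaTSSs and 18.9% of the others, a difference of -2.01 points (interval -5.06 to 1.43). A pyrimidine before a purine was found at 62.0% and 65.0%.

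Genes with a near uaTSS had slightly lower FPKM than genes with any other uaTSS and slightly higher FPKM than genes without one. The median was 16.96 FPKM (interval 14.5 to 19.3; 573 gene TSSs with a value) against 19.95 FPKM (19.0 to 21.05) with any other uaTSS. It was 13.7 FPKM without a uaTSS (near minus this class 3.23, interval 0.68 to 5.64) and 16.8 FPKM over all gene TSSs. On the log2(FPKM + 0.1) scale the medians differed by -0.23 (interval -0.47 to -0.04). Against 81 to 200 nt alone the difference was -0.16, with an interval that included 0 (-0.42 to 0.04). A near-uaTSS gene had the higher FPKM in 45.4% of all pairs (interval 42.8 to 47.9). FPKM was under 1 at 40 of 573 (6.98%, interval 5.03 to 9.38) and at 2.99% of the others, a difference of 3.99 points (interval 2.11 to 6.42). Without a uaTSS it was under 1 at 9.09%, a difference with an interval that included 0 (-4.11 to 0.40 points), and over all gene TSSs at 6.07%. At least 100 FPKM was reached by 46 (8.03%) against 10.5% of the others, a difference whose interval included 0 (-4.66 to 0.14 points). That share was 8.675% over all gene TSSs and 6.86% without a uaTSS. Among near uaTSSs, distance and FPKM had a Spearman rho of 0.04 and, on the log2 scale, a Pearson r of 0.06, across 573 gene TSSs that share libraries.

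The most highly expressed genes with a near uaTSS were RPL37A (907 FPKM), ALDOA (873 FPKM) and RPS14 (787 FPKM). They were followed by CD63 (318 FPKM), TMEM258 (an oligosaccharyltransferase subunit; 314 FPKM), YWHAZ (the zeta 14-3-3 protein; 255 FPKM), NDUFA13, RPS12, HINT1 and ROMO1 (a mitochondrial inner membrane protein; 207 FPKM). At the other end, C8orf86, MIA2 and C7orf76 were listed at 0, CAGE1, a cancer/testis antigen, at 0.00457 FPKM, and PLAC8 at 0.0351 FPKM. The capped 5' end and the message were measured in different libraries, and an FPKM of 0 can be a failed estimate. A low value, also in the share under 1 FPKM, can belong to another entry at the locus, since older symbols were matched too. The called gene TSS of MIA2 lay 407 nt upstream of the nearest annotated start, in an intron. Whether the values of MIA2 and C7orf76 are those of the transcripts that start there was not tested.

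**Figure D2:**
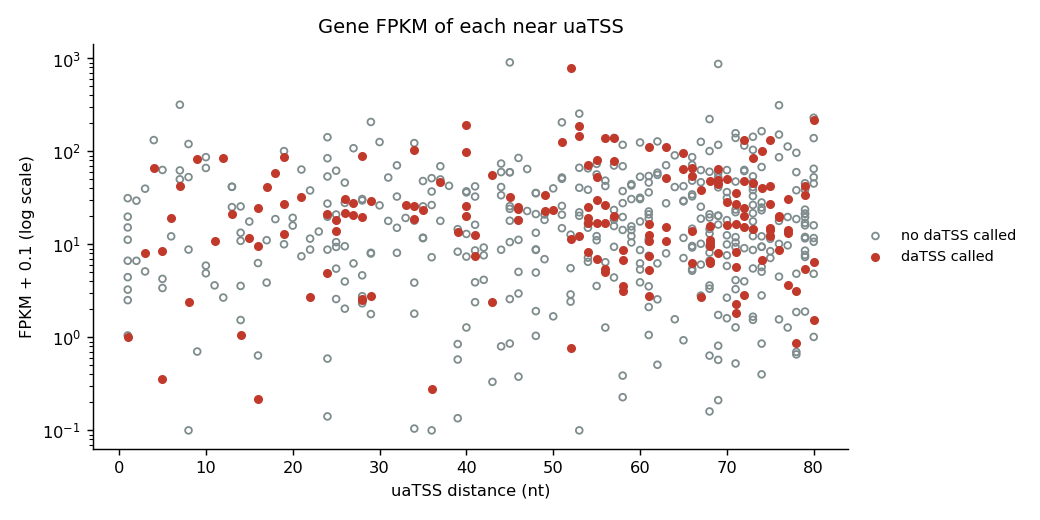
FPKM + 0.1 (log scale) of each gene with a near uaTSS against the uaTSS distance, for the 573 with an FPKM; filled red points have a called daTSS and open grey points have none. High and low values occur at all distances, from CD63 (318 FPKM) at 7 nt to HINT1 (217 FPKM) at 80 nt.

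A downstream antisense start (daTSS), on the strand opposite the gene and 1 to 2000 nt downstream of its TSS, was called at 163 of 576 promoters with a near uaTSS (28.3%, interval 24.7 to 32.2). The background was 32.9% of all gene TSSs with a uaTSS and 28.4% of all gene TSSs. Without a uaTSS, a daTSS was called at 23.4% (near minus this class 4.88 points, interval 1.15 to 8.87). Against the other uaTSSs (33.4%) the difference was -5.12 points (interval -8.89 to -1.09). Counting only daTSSs within 1000 nt, it was -3.27 points with an interval that included 0 (-6.89 to 0.65). The daTSSs lay a median of 427 nt downstream (interval 382 to 493) against 494 nt (472 to 514), and the interval of the difference included 0 (-116 to 2.57 nt). Against 81 to 200 nt it was -33.5 nt (-85.2 to 35.0). Of the 163, 97 (59.5%) lay in an intron and 61 (37.4%) in an exon of the gene, against 61.7% and 36.6% for the others.

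Among promoters with a near uaTSS and a daTSS, RPS14 had the highest expression, with its daTSS 602 nt downstream. HINT1 had one at 590 nt, SRSF9 (191 FPKM) at 868 nt, the linker histone gene H1F0 (189 FPKM) at 729 nt and EPCAM at 170 nt. At 7 promoters the daTSS was within 30 nt of the gene TSS. SUPT3H, a subunit of the SAGA complex (0.903 FPKM), had its uaTSS 1 nt upstream and its daTSS 2 nt downstream. TM9SF1 (24.5 FPKM) had both at 16 nt.

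**Figure D3:**
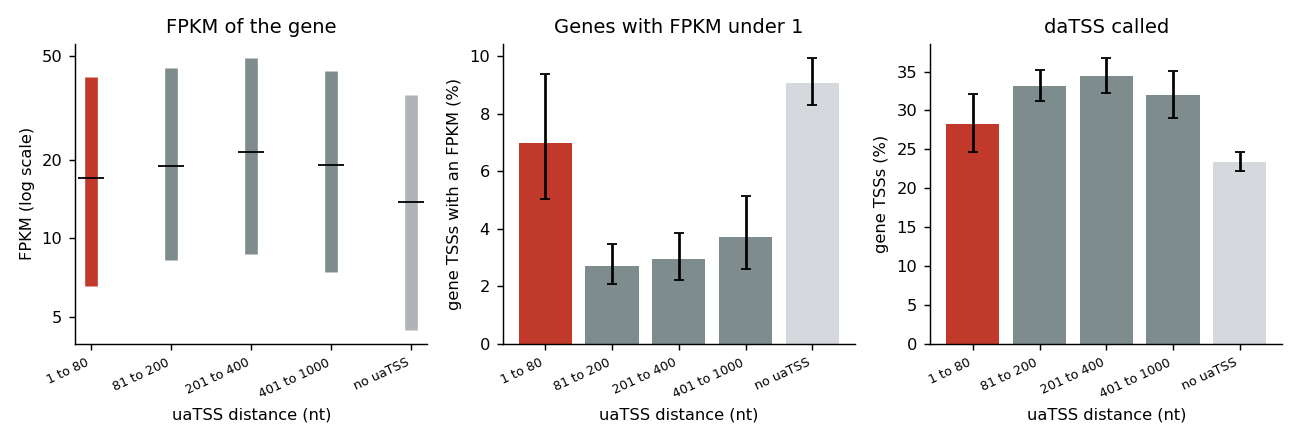
Left, median (line) and quartiles (bar) of gene FPKM on a log axis. Middle and right, percentage of gene TSSs with FPKM under 1 and with a called daTSS, with exact 95% binomial intervals; near uaTSSs (red) had 6.98% and 28.3%.

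Near uaTSSs lay at annotated protein-coding starts more often than the other uaTSSs as a whole. A transcript start in the antisense direction lay within 100 nt of 140 of 576 near uaTSSs (24.3%, interval 20.9 to 28.0) and of 20.1% of the others, a difference of 4.20 points (interval 0.68 to 8.02). Against 81 to 200 nt (22.7%) it was 1.56 points, with an interval that included 0 (-2.22 to 5.60). For protein-coding genes the count was 64 (11.1%) against 6.96% of the others (difference 4.15 points, interval 1.72 to 7.06) and 8.80% at 81 to 200 nt (difference 2.31 points, interval -0.32 to 5.35). For lncRNAs it was 74 (12.8%) against 12.4%. No annotated start on that strand lay within 1000 nt of 326 near uaTSSs (56.6%). A called gene TSS on the opposite strand lay within 1000 nt upstream of 10.8% of gene TSSs with a near uaTSS and 2.67% of the others, but of 20.6% of gene TSSs without a uaTSS and 11.5% of all gene TSSs. Of the 64 with an annotated coding start by the uaTSS, 34 had one. Within 50 nt of the uaTSS, a called gene TSS on its strand was present at 2 of 576 (0.35%) and at 0% of the others. The coding pairs below therefore rest on annotated starts.

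In the 62 coding pairs with an FPKM for both genes, neither side led: the gene with the near uaTSS was higher in 33 and the partner in 29. The medians were 18.5 and 15.7 FPKM, and 49 pairs had at least 1 FPKM on both sides. ROMO1 (207 FPKM) was paired with NFS1, the cysteine desulfurase of iron-sulfur cluster assembly (53.0 FPKM). STRAP (165 FPKM) was paired with EPS8 (35.2 FPKM), ATP6V1E1, a vacuolar ATPase subunit (116 FPKM), with BCL2L13 (14.3 FPKM), and ADAM9 (104 FPKM) with TM2D2 (32.6 FPKM). FEN1 (132 FPKM) was paired with TMEM258 (314 FPKM), and both had a near uaTSS. Their called gene TSSs lay 295 nt apart, with the uaTSS of FEN1 4 nt from its own start and the uaTSS of TMEM258 76 nt from its own. The uaTSS of FEN1 lay 291 nt from the called gene TSS of TMEM258. The same arrangement of a pair of genes that each had a near uaTSS was present at TRAPPC13 and TRIM23 (705 nt apart), UBE2D4 and URGCP (338 nt) and FBXL8 and TRADD (122 nt).

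By gene group, the share of uaTSSs that were near was read against the background of 10.4% of all uaTSSs, which lay inside the exact interval of every one of the 15 groups. Zinc finger genes had 29 of 234 (12.4%, interval 8.46 to 17.3), all at or under 38.5 FPKM, led by ZNF593 (38.5 FPKM), ZNF511 (27.4 FPKM) and ZNF623 (16.8 FPKM). Cytosolic ribosomal proteins had 4 of 55 (7.27%): RPL37A, RPS14, RPS12 and RPS27, of which RPS27 was listed at 0.425 FPKM. Reads of ribosomal protein genes can be shared with processed pseudogenes, so these FPKM are uncertain. Mitochondrial ribosomal proteins had 5 of 37, led by MRPL46 (65.7 FPKM). Its uaTSS lay by the annotated start of MRPS11 (51.0 FPKM), another protein of that ribosome.

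Proteasome genes had 3 of 22, PSMD7 (157 FPKM), PSMD14 (96.6 FPKM) and PSMD11 (71.6 FPKM), all of the regulatory particle. Oxidative phosphorylation had 2 of 32, NDUFA13 and NDUFA4 (42.6 FPKM). RNA polymerase II machinery had 6 of 39, led by POLR2K (118 FPKM), TAF11 (54.3 FPKM) and MED28 (22.5 FPKM). DNA replication had 3 of 17, the clamp loader subunit RFC4 (125 FPKM), POLE4 (42.7 FPKM) and GINS3 (8.35 FPKM). The RAB symbols had 5 of 34, led by the GTPases RAB25 (205 FPKM), RAB11A (95.2 FPKM) and RAB18 (46.7 FPKM); the other two, RAB3GAP2 and RAB11FIP3, encode RAB-associated proteins. Splicing had 2 of 45 (SRSF9 and HNRNPUL2), chaperones 3 of 33 (HSPA4L, DNAJC1 and DNAJC16), translation initiation 1 of 33 (EIF4E2, 59.0 FPKM), F-box genes 4 of 28, mitochondrial carriers 2 of 21 and replication-dependent histones 2 of 13. Histone messages of that class lack poly(A) tails, and both were under 1 FPKM. Aminoacyl-tRNA synthetases had 0 of 21, which an exact interval limits to 16.1%.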

How the data were processed

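Start positions were the authors' calls from Start-seq replicate 1, deposited as single-nucleotide hg19 intervals whose score column is 0 throughout, so read depth behind a call is unknown. Per the labels and methods, reads were trimmed with cutadapt 1.2.1 and aligned with Bowtie 0.12.8. FPKM values were deposited by the authors from Cufflinks 2.2.1, after TopHat2 2.0.4 alignment and merging of 3 replicates. Positions were joined by identifier. FPKM was matched by symbol and locus for 10317 of 10391 gene TSSs (573 of 576 near uaTSSs), and 28 symbols stored as dates were left out. The current symbol was tried first, then older symbols and synonyms, and the first match at the locus was used. Annotation was GENCODE v44 on GRCh37, with the nearest start within 1000 nt. CpG islands had over 200 nt, 50% GC and an observed to expected CpG ratio above 0.6. Printed sequences add 10 nt on the gene side and 10 or 20 nt beyond the uaTSS; those with long untranslated sequence were not shown. Python 3.11.15 with numpy 2.4.6, pandas 2.3.3 and scipy 1.17.1 was used, and intervals were tested on simulated data. No p-value was computed, since sites of 1 library are not replicates. Members and lists were chosen with earlier results of these data known. Named genes were the 10 highest and 5 lowest FPKM, 3 per gene group, the 5 shortest distances, up to 5 on each side of 80 nt, the 5 highest with a daTSS and the 5 highest with a coding partner. The second Start-seq library was not used here.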

Additional observations from a re-analysis of the deposited data

How the results depend on the processing

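Under 89 alternatives of the 8 planned comparisons, all 89 kept their direction and 82 stayed inside the main 95% interval. The GC box difference was -20.8 points with a 60 nt limit, -11.1 points with a 100 nt limit and -21.1 points in the 200 nt upstream. The GC content difference was -1.22 points centred on the gene TSS and -4.34 points in the 200 nt upstream. Compared with uaTSSs over 400 nt only, the CpG island difference was -1.47 points and the annotated antisense start difference 9.10 points. The cause was not tested. The daTSS difference ranged from -5.78 to -2.40 points, and its interval excluded 0 in 5 of 11 alternatives; the log2 FPKM difference ranged from -0.28 to -0.14, and its interval excluded 0 in 8 of 12. For antisense starts it did so in 6 of 10, and without gene TSSs that have a called opposite gene TSS within 1000 nt upstream the difference was 1.28 points. Leaving out distances of 1 to 10 nt and those opposite starts were chosen after seeing the data, as were the CCAAT, low FPKM and annotated start comparisons. CCAAT ranged from -15.1 to -9.27 points and FPKM under 1 from 2.51 to 4.60 points. The annotated start difference turned to 3.51 points against uaTSSs over 400 nt only. Leaving out uaTSSs at annotated antisense starts gives no value for the antisense start comparison. No paired analysis was possible because the calls come from 1 library and the FPKM from 1 merged column. The files hold no read counts, so no depth limit can be given for an uncalled uaTSS or daTSS.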
